A study of Mus musculus with 8 samples.

Results

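The genes described here each have a bead array probe that was not detected on day 3 of fat cell culture and was detected on days 7 and 9, in wildtype and in Irf3-knockout cells alike. A probe entered the set if it carried 1 gene symbol, had a detection p-value of at least 0.05 on both day 3 arrays, and had a detection p under 0.01 on all 4 arrays of days 7 and 9. The detection p is the share of the array's negative control beads that are as bright as the probe. In all, 76 of 23978 probes met this, for 73 of 16593 genes; Lyz1, Aif1 and Tshr entered through 2 probes each. Of 11054 probes undetected on both day 3 arrays, 47 more were on at days 7 and 9 in knockout alone and 11 in wildtype alone by the same limits, and 29 probes went the opposite way, detected on day 3 and undetected on all 4 later arrays.

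The cells were preadipocytes isolated from mouse white adipose tissue, wildtype or Irf3-knockout, and RNA was taken on days 3, 5, 7 and 9 of differentiation in high-glucose medium with NCS, insulin and ascorbate, with no other treatment. Each genotype was measured on 1 array per day, 8 arrays in all, and no condition was replicated. The strain, sex and age of the mice, the part of Irf3 that was deleted, and whether 1 culture supplied all days of a genotype are not given in the sources used here. Genotype and culture therefore cannot be told apart.

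Preadipocytes become fat cells in steps. Early regulators switch on the nuclear receptor PPARγ and C/EBPα, and these in turn activate genes for fatty acid synthesis, droplet storage, lipolysis and insulin-driven glucose uptake, which appear as the cell fills with lipid. Primary cultures from fat tissue can also carry macrophages, which have a gene programme of their own. Irf3 encodes a transcription factor that drives interferon and interferon-stimulated genes.

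Probes detected per array (detection p under 0.05) ran from 11534 on wildtype day 5 to 12660 on knockout day 7, 48.1% to 52.8% of the probes with a symbol. The raw median intensity was lowest on wildtype day 3, at 135.2, against 180.9 to 212.1 on the other arrays. The 3 probes for Irf3 were detected on all 8 arrays, and since the deleted part is not known they do not check the labels. The interferon-stimulated list had 24 of 31 tested genes called lower in knockout and 0 higher, where limma called 1.95% of all tested probes lower and 2.39% higher. Of 10 defining markers of mature adipocytes, all were detected on at least 1 array. Markers of preadipocytes (5 of 5) and 7 of 9 of macrophages were detected on all 8 arrays, whereas 0 of 5 hepatocyte markers were detected on any. Endothelial (4 of 6), mesothelial and epithelial (3 of 7) and skeletal muscle markers (2 of 6) were also detected on all 8 arrays. From day 3 to day 9 the summed linear intensity of the mesothelial and epithelial list went from 9092 to 1104 in wildtype and from 5514 to 872 in knockout, and 4 of its 8 tested genes were called lower in knockout. That of the muscle list went from 5264 to 3026 and from 13985 to 4710, and that of the endothelial list from 12297 to 7149 and from 9578 to 6162. No member is in these 3 lists, and the part of these cells in the results was not tested.

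Promoters are shown because the members came on together within a few days. The sequences came from RefSeq on mouse build GRCm38.p6, which held 58 promoters for 46 of the 73 genes. The 250 bases before the start of 4 members with large differences between day 3 and later days are shown 5′ to 3′ on the gene's own strand, with searched motifs in capitals. They lie at chr7:97417551-97417800 (minus strand) for Thrsp, chr2:158502362-158502611 (plus) for Adig, chr6:113434765-113435014 (minus) for Cidec and chr10:117292869-117293118 (minus) for Lyz1. Capitals mark the CCAAT box in either orientation (Thrsp, Lyz1), the nuclear receptor half-site AGGTCA (Adig, Lyz1) and the C/EBP core TTGCNNAA in either orientation (Cidec, Lyz1).
Thrsp: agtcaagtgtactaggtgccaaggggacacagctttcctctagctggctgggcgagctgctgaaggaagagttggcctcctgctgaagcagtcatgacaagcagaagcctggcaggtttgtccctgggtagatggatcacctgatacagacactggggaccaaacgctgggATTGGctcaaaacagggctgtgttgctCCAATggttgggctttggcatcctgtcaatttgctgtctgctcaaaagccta
Adig: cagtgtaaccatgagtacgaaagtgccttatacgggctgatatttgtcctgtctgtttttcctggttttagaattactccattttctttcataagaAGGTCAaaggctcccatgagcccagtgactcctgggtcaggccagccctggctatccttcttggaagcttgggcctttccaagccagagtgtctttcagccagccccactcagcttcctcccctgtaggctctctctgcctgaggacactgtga
Cidec: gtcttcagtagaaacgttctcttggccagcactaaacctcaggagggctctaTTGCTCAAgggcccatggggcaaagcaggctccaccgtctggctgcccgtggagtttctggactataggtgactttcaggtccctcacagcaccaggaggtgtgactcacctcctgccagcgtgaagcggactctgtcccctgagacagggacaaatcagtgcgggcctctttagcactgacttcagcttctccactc
Lyz1: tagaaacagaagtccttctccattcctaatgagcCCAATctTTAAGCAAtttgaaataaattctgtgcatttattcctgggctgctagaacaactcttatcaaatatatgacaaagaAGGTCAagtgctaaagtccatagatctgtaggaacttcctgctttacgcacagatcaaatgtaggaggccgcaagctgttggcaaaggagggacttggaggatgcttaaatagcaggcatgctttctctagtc
Across the 58 promoters, counted from 250 bases before to 50 after the start and on both strands, motif frequencies lay close to those of all 32851 promoters. AGGTCA was in 12 (20.7%, against 16.3% of all), TTGCNNAA in 8 (13.8% against 10.8%) and CACGTG, the E-box, in 5 (8.62% against 7.15%). CCAAT was in 18 (31.0% against 37.4%), the GC box GGGCGG in 21 (36.2% against 35.7%) and TATAAA in 5 (8.62% against 13.6%). The full PPAR response element, AGGTCA repeated after 1 base of any kind, contains the half-site and was in 0 of 58 and in 0.0396% of all. The sterol element TCACNCCAC was in 1 (1.72% against 1.24%) and the interferon-stimulated element, GAAA repeated after any 2 bases, in 2 (3.45% against 3.44%). These matches are letters in the sequence and were not tied to binding of a factor in these cells.

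Levels below are normalized log2 intensities, and a level is comparable only within a probe. Because day 3 was at background by the rule, each difference from day 3 to the mean of days 7 and 9 is a lower bound, with day 3 raised to the dimmest detected probe of that array (5.60 in wildtype, 5.65 in knockout). These values chose the members, so they are given without a test. The median bound over the 76 probes was at least 3.19-fold in wildtype (range 1.52 to 57.5) and at least 5.70-fold in knockout (1.37 to 252). A bound of at least 2-fold was reached by 61 probes in wildtype (6.46% of all tested probes) and 60 in knockout (7.18%). A bound of at least 4-fold was reached by 25 probes in wildtype (1.79% of all tested probes) and 47 in knockout (2.55%), and one of at least 16-fold by 4 (0.246%) and 16 (0.425%). The median level of the members on days 3, 5, 7 and 9 was 5.05, 5.60, 6.98 and 7.38 in wildtype and 5.22, 6.86, 8.22 and 8.50 in knockout. The heatmap of all 76 probes shows these levels.

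**Figure D1:**
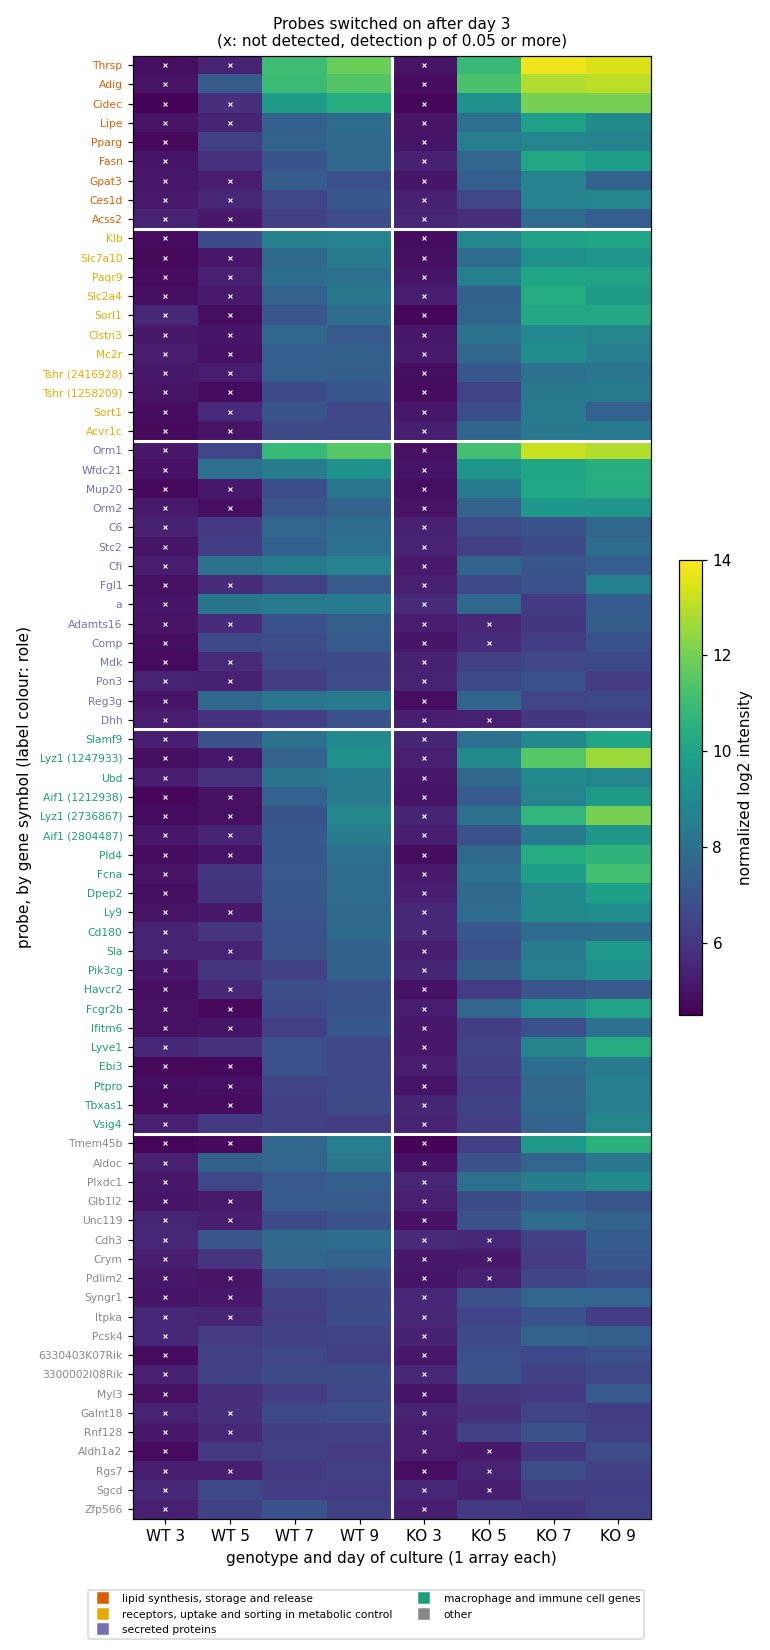
Normalized log2 intensity (colour) of the 76 probes (vertical) on the 8 arrays (horizontal: WT wildtype, KO knockout, day 3 to 9), grouped by role, with a cross where the probe was not detected. Both day 3 columns are crossed throughout by the rule; on day 5, 32 probes are without a cross in wildtype and 67 in knockout.

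On day 5, a day the rule did not use, knockout cells already had most of the set detected and wildtype cells did not. By a detection p under 0.05, 32 of 76 probes were on in wildtype and 67 in knockout. Over all probes with a symbol 48.1% and 49.4% were detected on these arrays, and of those undetected on both day 3 arrays 3.44% and 3.81%; a probe of this set had to be on by day 7, so these shares are not like for like. At a detection p under 0.01 the counts were 9 and 64. Both arrays had 26 probes in common, 41 were detected in knockout alone, 6 in wildtype alone and 3 on neither. On the way from the day 3 level to the mean of days 7 and 9, on the log2 scale, the median member stood at 22.9% on day 5 in wildtype and at 58.6% in knockout. With 1 array per genotype on day 5 the difference in counts has no replicate check.

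The 6 probes detected on day 5 in wildtype alone were for Cdh3, Crym, Comp, Aldh1a2, Sgcd and Dhh. Cdh3, P-cadherin, read 5.56, 7.00, 7.78 and 7.89 on wildtype days 3 to 9 and 5.62, 5.55, 6.35 and 7.26 in knockout. On days 5, 7 and 9 knockout was the lower array for Cdh3, by at least 2.43-fold on day 5. Crym, a thyroid hormone-binding protein of the cytosol, read 5.30, 5.97, 7.62 and 7.49 in wildtype and 5.12, 5.13, 6.16 and 7.08 in knockout. Comp, a cartilage matrix protein, was at 6.61 on wildtype day 5 and at 5.70, undetected with a detection p of 0.0514, in knockout. Aldh1a2, which makes retinoic acid, was at 6.07 on wildtype day 5 and 5.16 in knockout. The other Aldh1a2 probe was detected on day 5 in both genotypes, at 7.08 and 6.60, and on day 3 in knockout alone. Sgcd, a sarcoglycan, was at 6.54 and 5.30 on day 5, and knockout minus wildtype was -0.03 and 0.09 on days 7 and 9. The 3 probes on neither day 5 array were for Adamts16, a secreted protease, Pdlim2, a cytoskeletal adaptor, and Rgs7, a regulator of G protein signalling. These member probes were first detected on day 7, at 6.90 in wildtype and 6.03 in knockout for Adamts16, 6.75 and 6.45 for Pdlim2, and 6.13 and 6.74 for Rgs7. The 3 other probes for Pdlim2 were detected on all 8 arrays, and 1 of them read 9.63 and 9.95 on day 3 in wildtype and knockout.

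**Figure D2:**
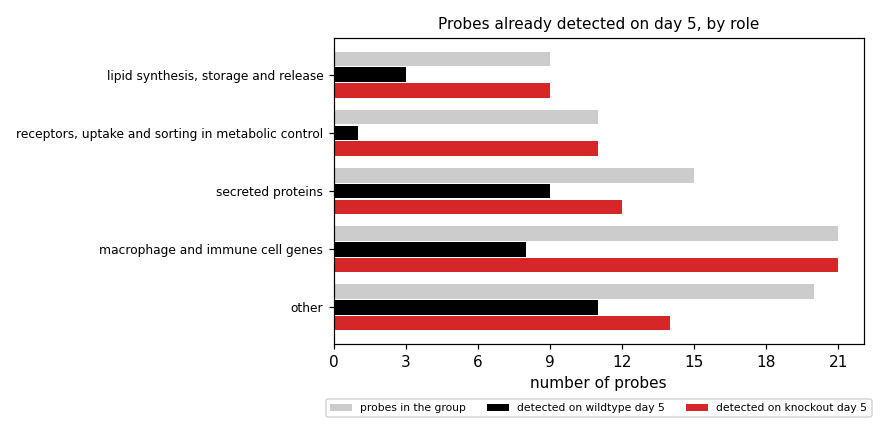
Number of probes (horizontal) in each role (vertical): all members in grey, those detected on day 5 in wildtype in black and in knockout in red. All 41 probes of the lipid, receptor and macrophage groups are detected on day 5 in knockout, against 12 in wildtype.

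Of the 9 genes of lipid synthesis, storage and release, 3 were detected on day 5 in wildtype and 9 in knockout. Thrsp, the lipogenic nuclear protein Spot 14, read 4.84, 5.45, 11.04 and 11.85 on wildtype days 3, 5, 7 and 9 and 5.00, 10.96, 13.77 and 13.49 in knockout. Its later levels were at least 57.5-fold above day 3 in wildtype and at least 252-fold in knockout. Knockout day 5 was at the level of wildtype day 7, and wildtype day 5 was still at background, a gap of at least 34.9-fold on that day. Adig, adipogenin, a small membrane protein of fat cells, read 5.00, 7.25, 10.99 and 11.45 in wildtype and 4.80, 11.29, 12.88 and 13.04 in knockout. The bounds for Adig were 49.2-fold and 158-fold, and its knockout day 5 level lay between wildtype days 7 and 9. Cidec, which enlarges lipid droplets, read 4.59, 5.82, 9.77 and 10.43 in wildtype and 4.68, 9.32, 12.06 and 12.05 in knockout. Its bounds were 22.6-fold and 84.6-fold. On day 5 it was detected in knockout alone, but its wildtype detection p of 0.0501 was just past the limit.

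The other lipid genes had smaller bounds. Fasn, fatty acid synthase, read 5.06, 5.85, 6.95 and 7.75 in wildtype and 5.36, 7.62, 10.17 and 9.81 in knockout, with bounds of 3.38-fold and 20.2-fold. Lipe, hormone-sensitive lipase, read 4.99, 5.49, 7.41 and 7.86 in wildtype and 5.02, 7.96, 9.93 and 8.99 in knockout. Pparg, the master regulator of fat cell formation, read on its member probe 4.76, 6.30, 7.48 and 7.75 in wildtype and 5.03, 8.57, 8.82 and 8.80 in knockout. For Fasn, Lipe and Pparg knockout was the higher array on days 5, 7 and 9, and for Lipe the day 5 knockout level exceeded both late wildtype levels. Gpat3, which adds the fatty acid to glycerol phosphate, had bounds of 2.72-fold and 5.49-fold. Ces1d, a carboxylesterase that hydrolyses triglyceride, had 2.33-fold and 8.72-fold, and Acss2, which makes acetyl-CoA from acetate, had 1.96-fold and 3.81-fold. Ces1d has near-identical neighbours in the carboxylesterase family, so its signal may be shared. In knockout 2 of the 9 probes were higher on day 9 than on day 7, against 8 of 9 in wildtype (49.7% and 49.0% of all tested probes).

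The 11 probes for receptors, transporters and sorting proteins (10 genes) had 1 detected on day 5 in wildtype and 11 in knockout. The single one in wildtype was Klb, beta-klotho, the co-receptor for FGF21, at 4.82, 6.70, 8.67 and 8.71 in wildtype and 4.82, 8.85, 9.95 and 10.08 in knockout. Slc2a4, the insulin-regulated glucose transporter GLUT4, read 4.90, 5.20, 7.47 and 8.34 in wildtype and 5.27, 7.46, 10.38 and 9.76 in knockout. Sorl1, a sorting receptor, read 5.55, 4.84, 7.04 and 7.90 in wildtype and 4.68, 7.58, 10.23 and 10.23 in knockout, bounds of 3.67-fold and 23.8-fold. For Slc2a4 and Sorl1 knockout was higher on each of days 5, 7 and 9. Paqr9, a membrane receptor family protein, had bounds of 5.30-fold and 21.2-fold, and Slc7a10, an amino acid transporter found on white fat cells, 5.67-fold and 13.7-fold. Sort1, sortilin, a partner of GLUT4 vesicles, had 2.26-fold and 5.01-fold. The hormone receptors were Mc2r, the receptor for ACTH (3.39-fold and 9.44-fold), and Tshr, the thyrotropin receptor, whose probes gave 3.31-fold and 5.70-fold, and 2.47-fold and 6.70-fold. Acvr1c, the receptor kinase ALK7 of fat cells, gave 2.07-fold and 6.66-fold, and Clstn3, a calsyntenin, 3.55-fold and 9.42-fold.

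Members were 0.44% of the genes on the array, so a short list holding none says little. The mature adipocyte list of 37 genes on the array held 8 members (Thrsp, Adig, Cidec, Slc2a4, Lipe, Pparg, Tshr and Acvr1c). The list of receptors of fat cells held 3 of 25, fatty acid and triglyceride synthesis 3 of 25, lipolysis 2 of 16, carbohydrate handling 2 of 31 (Slc2a4 and Aldoc, an aldolase) and lipid droplets 1 of 17. No gene of the lists for fatty acid oxidation (29 genes on the array), brown and beige fat (22), adipokines (25) or interferon response (35) was a member. The summed linear intensity of the mature adipocyte list went from 45028 on day 3 to 137870 on day 9 in wildtype and from 55497 to 195460 in knockout, with 238070 on day 7. Detected genes of that list were 21, 23, 31 and 31 of 37 in wildtype and 23, 33, 35 and 32 in knockout, and Cd36 and Pck1 were never detected. The list includes the 8 members, whose member probes the rule fixed as off on day 3 and on at days 7 and 9. Part of the rise in these counts and sums was therefore set by selection, and values without the members are not given. In RNA from a whole dish, more cells of a type and more RNA per cell cannot be told apart.

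Secreted proteins made up 15 members, 9 of them detected on day 5 in wildtype and 12 in knockout. Orm1, an acute-phase plasma glycoprotein, read 5.15, 6.49, 10.88 and 11.53 in wildtype and 4.91, 11.17, 13.19 and 12.92 in knockout, bounds of 48.8-fold and 169-fold. Orm2 read 5.20, 4.91, 7.01 and 7.54 in wildtype and 5.00, 7.54, 9.57 and 9.49 in knockout. Orm1 and Orm2 are close copies, so their probes may share signal. Mup20, a major urinary protein with many near-identical relatives, read 4.72, 5.14, 6.79 and 8.23 in wildtype and 4.86, 8.46, 10.18 and 10.38 in knockout. Wfdc21, a small secreted protein of the whey acidic protein family, read 4.98, 7.98, 8.50 and 9.37 in wildtype and 5.06, 9.44, 10.12 and 10.51 in knockout. Orm1, Orm2, Mup20, Wfdc21 and Fgl1, a fibrinogen-like protein, were higher in knockout on all of days 5, 7 and 9.

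Another 6 secreted proteins went the other way, lower in knockout on each of the 3 days: Cfi, Reg3g, a, Adamts16, Comp and Dhh. Cfi, complement factor I, read 5.25, 8.03, 8.47 and 8.73 in wildtype and 5.17, 7.54, 7.03 and 7.34 in knockout. Reg3g, an antimicrobial lectin, read 5.03, 7.69, 8.22 and 8.44 in wildtype and 4.87, 7.52, 6.50 and 6.57 in knockout. The agouti gene (symbol a), whose secreted product blocks melanocortin receptors, read 5.08, 8.19, 8.39 and 8.43 in wildtype and 5.65, 7.71, 6.12 and 7.27 in knockout. All 3 were detected on day 5 in both genotypes. In knockout each was at its highest on day 5, whereas in wildtype day 9 was the highest. The remaining secreted members did not keep 1 sign: C6, a complement component, Stc2, stanniocalcin 2, Mdk, the growth factor midkine, and Pon3, a paraoxonase. C6 stood at 7.94 and 7.65 on day 9 in wildtype and knockout, and Stc2 at 8.07 and 7.87.

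**Figure D3:**
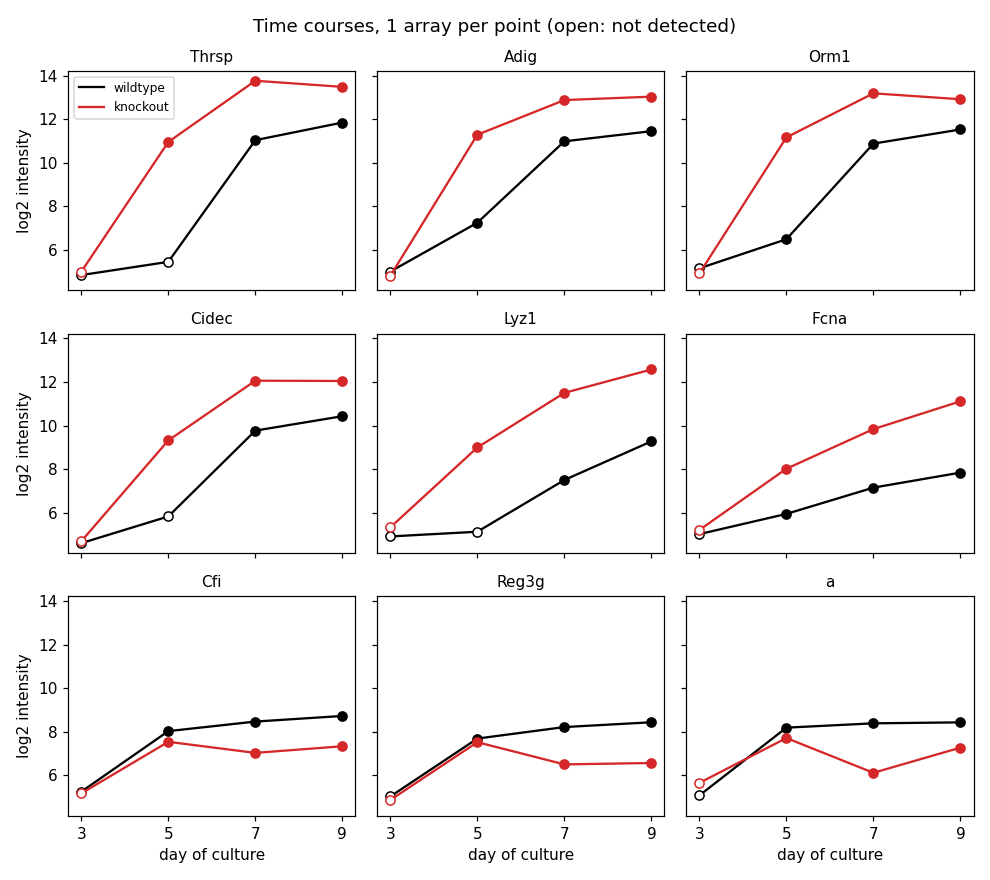
Normalized log2 intensity (vertical) by day of culture (horizontal) of 9 members, wildtype in black and knockout in red, 1 array per point, open where not detected. Thrsp, Adig, Orm1 and Cidec in knockout are on day 5 within 0.5 of wildtype day 7, Lyz1 and Fcna are higher in knockout from day 5 on, and Cfi, Reg3g and a are lower.

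The largest role group was of macrophages and other immune cells, with 21 probes for 19 genes, of which 8 were detected on day 5 in wildtype and 21 in knockout. Lyz1, a lysozyme, read on its brighter member probe 4.90, 5.12, 7.50 and 9.27 in wildtype and 5.32, 8.99, 11.50 and 12.58 in knockout, bounds of 6.90-fold and 83.6-fold. Lyz1 is a close copy of Lyz2, so its probes may share signal with it. The other probe for Lyz1, outside the set, read 12.25, 13.60, 14.48 and 14.38 in wildtype and 14.14, 14.45, 14.46 and 14.08 in knockout. On that probe knockout was the higher array on days 3 and 5 and the lower array on days 7 and 9. Its levels of 14.08 to 14.48 on days 7 and 9 were near the highest of any marker, 14.77 for Lpl on knockout day 3. Whether the probe was near its upper limit there was not tested. Fcna, the lectin ficolin A, read 5.01, 5.94, 7.15 and 7.84 in wildtype and 5.20, 8.01, 9.84 and 11.11 in knockout. Aif1, the macrophage protein Iba1, read 4.67, 4.93, 7.48 and 8.44 in wildtype and 5.04, 7.23, 8.82 and 9.67 in knockout. Fcgr2b, the inhibitory receptor for IgG, read 4.92, 4.75, 6.61 and 6.99 in wildtype and 5.23, 7.58, 9.09 and 9.98 in knockout. On the member probes of these genes knockout was higher on days 5, 7 and 9, as on all 21 probes of the group (22.9% of all tested probes).

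Most of these probes were higher on the last day than on day 7. Day 9 was above day 7 for 18 of 21 probes in wildtype and 20 of 21 in knockout (49.0% and 49.7% of all tested probes), against 15 and 7 of the 20 lipid and receptor probes. Lyve1, a hyaluronan receptor of tissue macrophages and lymph vessels, read 5.57, 5.84, 6.83 and 6.54 in wildtype and 5.14, 6.42, 8.76 and 10.38 in knockout. Vsig4, a complement receptor of resident macrophages, read 5.32, 6.09, 6.39 and 6.21 in wildtype and 5.43, 6.24, 7.52 and 8.81 in knockout. For both, the difference between genotypes was widest on day 9, at 3.84 for Lyve1 and 2.60 for Vsig4. The other genes of the group were Slamf9, Ly9 and Cd180 (surface receptors of leukocytes), Pld4 (an endolysosomal nuclease), Dpep2 (a dipeptidase that acts on leukotrienes), Sla and Pik3cg (signalling), Havcr2 (TIM-3), Ebi3 (a cytokine subunit), Tbxas1 (thromboxane synthase), Ptpro, Ifitm6 and Ubd (a ubiquitin-like modifier). Their bounds ran from 1.88-fold to 7.69-fold in wildtype and from 2.79-fold to 29.6-fold in knockout.

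The macrophage list, which holds members of this group, moved in the same direction. The rule fixed member probes as off on day 3 and on at days 7 and 9, so part of the list's rise was set by selection. Of its 41 genes on the array 25, 26, 32 and 33 were detected in wildtype and 26, 32, 34 and 36 in knockout, and Cybb, Cd5l, Msr1 and Itgax were never detected. Its summed linear intensity went from 19288 to 96935 in wildtype and from 54252 to 189390 in knockout. Limma called 21 of its 35 tested genes higher in knockout and 0 lower (2.39% and 1.95% of all tested probes), and its median difference was 1.58 against -0.02 over all tested probes; 5 of the 41 genes are members (Lyz1, Fcgr2b, Aif1, Lyve1 and Fcna). Adgre1, the F4/80 marker, was detected on every array, at 6.99 on wildtype day 3 and 9.17 on knockout day 3. Of 10 lymphocyte genes 0 or 1 were detected per array. The part of macrophage number in the differences of this group was not tested.

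The last 20 genes share no single role and had the smallest bounds, with medians of 2.07-fold in wildtype and 1.98-fold in knockout. Tmem45b, a membrane protein, had the largest bounds of these, 5.72-fold and 22.2-fold, and read 4.68, 4.76, 7.63 and 8.60 in wildtype and 4.60, 6.29, 9.63 and 10.62 in knockout. Aldoc read 5.33, 7.47, 7.61 and 8.31 in wildtype and 4.98, 6.84, 7.60 and 8.33 in knockout, and the genotypes differed by -0.01 and 0.01 on days 7 and 9. The others were Plxdc1, Syngr1, Glb1l2, Unc119, Itpka, Pcsk4, Myl3, Galnt18, Rnf128, Zfp566 and 2 clone-named genes, with Cdh3, Crym, Aldh1a2, Sgcd, Pdlim2 and Rgs7 described above. Their knockout bounds ran from 1.37-fold to 8.83-fold.

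Between genotypes, most members were higher in knockout on days 5, 7 and 9. The rule holds both day 3 levels near background, so the day 3 difference is small by selection and gives no onset. The median difference, knockout minus wildtype, was 0.14, 1.40, 1.26 and 1.07 on days 3, 5, 7 and 9, where all 13413 tested probes had medians of 0.01, -0.01, -0.02 and -0.02. A bound was also taken, with undetected day 5 levels raised to the dimmest detected probe of their array. The day 5 median over the 73 probes detected on either array was then 1.0. By that bound 37 probes were at least 2-fold higher in knockout and 1 lower, with no share over all probes to set beside these counts. Without bounds, at least 2-fold higher in knockout were 46, 45 and 40 probes on days 5, 7 and 9 (5.04%, 5.81% and 4.91% of all tested), and at least 2-fold lower were 2, 6 and 3 (3.91%, 4.59% and 3.93%). In all, 53 probes were higher in knockout on all 3 days (22.9%) and 9 lower (24.9%). Knockout day 5 equalled or exceeded wildtype day 7 for 35 of 76 probes, against 52.6% of all tested probes. It equalled or exceeded wildtype day 9 for 21, with no share over all probes to set beside that count.

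**Figure D4:**
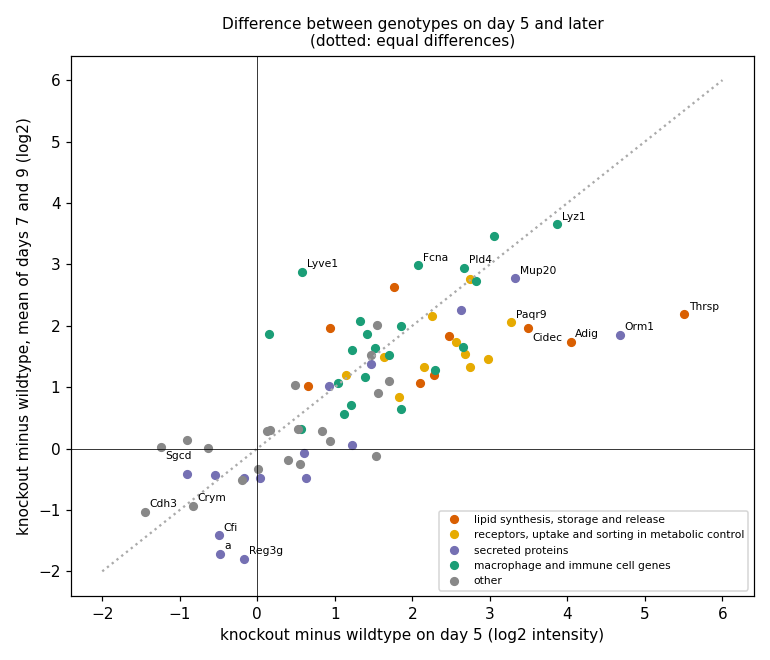
Knockout minus wildtype on day 5 (horizontal) against the mean of days 7 and 9 (vertical), both in log2 intensity, for the 76 probes coloured by role. Thrsp, Orm1, Adig and Cidec lie right of the dotted line of equal differences, Lyve1 and Fcna above it, and Cfi, Reg3g, a, Cdh3 and Crym below 0 on both axes.

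The genotype difference was tested with limma over all 13413 probes. The model held a term for each day, and the spread among the 4 daily differences served as the error. Of the 76 probes 11 passed an adjusted p of 0.05 as higher in knockout (2.39% of all tested) and 0 as lower (1.95%). The fit estimated 60 of 76 above 0 (47.9% of all), and 54 had an unadjusted p under 0.05 (18.9%). The called probes were both member probes for Lyz1, and those for Fcgr2b, Acvr1c, Ly9, Dpep2, Pik3cg, Tbxas1, Ebi3, Plxdc1 and Syngr1. Tbxas1 differed by 1.37 ± 0.21 (SE, 4 days, limma adjusted p = 0.0152) and Fcgr2b by 2.15 ± 0.42 (0.0368). Lyz1 differed by 2.90 ± 0.56 (0.0347) and 2.66 ± 0.46 (0.0248) on its 2 member probes. Acvr1c differed by 1.66 ± 0.30 (0.0280), Ly9 by 1.63 ± 0.32 (0.0352), Dpep2 by 1.56 ± 0.28 (0.0289) and Pik3cg by 1.47 ± 0.29 (0.0385). Ebi3 differed by 1.32 ± 0.24 (0.0305), Plxdc1, an endothelial receptor, by 1.23 ± 0.22 (0.0288) and Syngr1, a vesicle protein, by 1.11 ± 0.21 (0.0316). Macrophage and immune genes gave 8 of the 11 calls, and the 9 lipid probes gave 0: Thrsp differed by 2.51 ± 0.74 (0.125), Adig by 1.83 ± 0.58 (0.144) and Cidec by 1.87 ± 0.48 (0.0835).

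Day 3 weighs on this test, because the rule holds both day 3 levels near background. Without day 3, 45 members were called higher (5.0% of all tested) and 2 lower (4.34%), and all 11 earlier calls were among them. Then 8 of 9 lipid probes, all 11 receptor probes, 16 of 21 macrophage probes, 5 of 15 secreted and 5 of 20 other probes were higher. Thrsp differed by 3.29 ± 0.66 (SE, 3 days; limma adjusted p = 0.0319), Adig by 2.51 ± 0.46 (0.0231), Cidec by 2.47 ± 0.34 (0.00928) and Lyz1 by 3.73 ± 0.19 (0.000565). The 2 lower in knockout were Cfi, by -1.11 ± 0.23 (0.0349), and Cdh3, by -1.17 ± 0.21 (0.0230). Reg3g, at -1.25 ± 0.34 (0.0738), and a, at -1.30 ± 0.33 (0.0603), did not pass. Without day 5, day 7 or day 9, 0 of the 11 calls held. Calls over all tested probes were 264, 241 and 212 in those fits, against 582 with all 4 days. In them 43 to 47 members had an unadjusted p under 0.05, with no share over all probes to set beside that.

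Whether the genotypes differed by another amount on day 5 than later was tested on days 5, 7 and 9. Limma called 0 of 13413 probes (1126 had an unadjusted p under 0.05, 8.39%), and 24 members were among those 1126. The smallest adjusted p of a member, 0.254, was that of Thrsp, whose day 5 difference exceeded the later mean by 3.32 ± 0.49. Only 1 degree of freedom was left in that fit, and on simulated data its count of calls was unstable.

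Other probes of the same genes qualify the word undetected. Of the 73 genes 30 have another probe on the array, and for 18 of them another probe was detected on a day 3 array. Another probe for Pparg read 9.62 and 10.55 on day 3 in wildtype and knockout and 12.07 and 12.60 on day 9. Another for Sort1 read 9.39 and 10.24 on day 3, another for Acss2 10.17 and 10.67, and another for Mdk 9.85 and 10.35. The other Lipe probe, detected on all 8 arrays, read 6.38 and 6.10 on day 3 and 5.81 and 6.21 on day 9. The 3 other probes for Pdlim2 were also detected on all 8 arrays. For these genes the member probe came on after day 3 while transcript was read earlier by a different probe. For Dpep2, Tbxas1, Plxdc1, Syngr1, Havcr2, Gpat3 and Aldh1a2 another probe was detected on day 3 in knockout alone, and for Unc119 in wildtype alone. On day 3 in wildtype and knockout it read 4.99 and 6.44 for Dpep2 and 5.80 and 5.11 for Unc119. Another for Fcgr2b, detected on both day 3 arrays, read 5.74 and 7.27. Among 30 tested probes of member genes outside the set, 9 were called for genotype, all higher in knockout (2.39% of all tested probes). They were for Sort1 (2 probes), Pparg, Acss2, Dpep2, Plxdc1, Fcgr2b, Tbxas1 and Syngr1. Those not called included the probes for Lyz1 (0.60, limma adjusted p = 0.402) and Lipe (-0.04, limma adjusted p = 0.937). That Lyz1 probe read 14.08 to 14.48 on days 7 and 9, near the highest marker level.

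On day 3 the smallest detection p inside the rule was 0.0501 for a, 0.0514 for Pcsk4, a proprotein convertase, and 0.0526 for Sgcd, and just outside were Amy1 (0.0489), Ypel1 (0.0476) and Fbln1 (0.0476). On the late arrays the largest p inside was 0.00752 for Rgs7, Zfp566 and Dhh, and just outside, at 0.01003, were Il15, Rxrg and Nol3.

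The deposited matrix of processed values does not show most of the set. For 48 of the 76 probes it holds its floor value of 20 on all 8 arrays, as it does for 42.7% of all probes with a symbol. Thrsp is among them, although its raw intensity reached 15309.4 on knockout day 7, and so are Adig, Cidec, Orm1, Lyz1 and Fasn. The remaining 28 were above the floor on all 4 late arrays. The 48 had raw wildtype day 3 intensities of 98.3 to 121.8 and the 28 had 122.0 to 134.1. Over the whole array the lowest raw wildtype day 3 intensity of a probe off the floor was 121.9, so that by this definition the 10299 probes below it were at the floor on all 8 arrays. Of these, 71 passed the late limit of the rule on all 4 late arrays. Another 810 probes at 121.9 or above were also at the floor on all 8 arrays, so the wildtype day 3 level does not divide all probes. By role the floored probes were 7 of 9 lipid, 7 of 11 receptor, 10 of 15 secreted, 15 of 21 macrophage and 9 of 20 other probes.

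**Figure D5:**
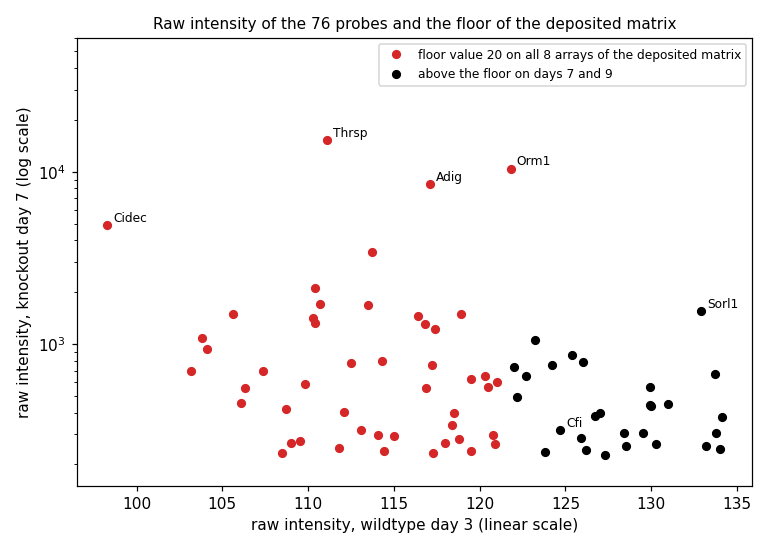
Raw intensity on wildtype day 3 (horizontal, linear) against knockout day 7 (vertical, log scale) of the 76 probes, red where the deposited matrix holds 20 on all 8 arrays. The 48 red probes lie at 98.3 to 121.8 on the horizontal axis and the 28 black ones at 122.0 to 134.1, whatever their level on knockout day 7.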

How the data were processed

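Illumina bead arrays read biotinylated cRNA made from total RNA, per the labels. The authors deposited a table of raw mean bead intensity per probe with a detection p-value, and a matrix of processed intensity. How that matrix was normalized is not stated in the labels. All 8 intensity columns were matched to samples. The raw table was the source of all values, and the processed matrix an alternative. Of 25697 probes, 23978 had 1 symbol, 1719 none and 0 several; 23962 symbols were updated through gene identifiers. In limma 3.58.1 (R 4.3.3) the background was corrected by normexp with the detection p-values and an offset of 16, arrays were quantile-normalized and log2 taken. The 13413 probes detected (p under 0.05) on 2 or more arrays were tested two-sided with Benjamini-Hochberg adjustment. Genotype was fitted with day as a factor (3 residual degrees of freedom). The day 5 difference against the later mean was fitted on days 5, 7 and 9 (1 degree of freedom). Both steps were tested on simulated data. The number of arrays limits the precision, and repeated days of unknown cultures are not separate animals.

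The members and the gene lists were chosen with earlier results of these data known, and the roles were assigned with names and values in view. The rule for named genes took the largest bounds, the called probes, the extremes of the day 5 difference, probes on neither day 5 array, list members, threshold neighbours and genes with another probe on at day 3. The other members are named for their role, and Cfi, Reg3g, a, Lyve1, Vsig4 and Sorl1 were given in full after their values were seen. Alternatives varied the rule, background, filter, variance prior, day term and days used. Leaving out the macrophage group was chosen after seeing the data.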

Additional observations from a re-analysis of the deposited data

How the results depend on the processing

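The set's size rests on its limits. The 76 probes became 184 with a day 3 limit of 0.01, 19 with 0.2, 207 with a late limit of 0.05 and 50 with 0.001. Day 5 counts of 32 in wildtype and 67 in knockout became 7 and 18 of those 19, and the wildtype count was 9 at a detection p under 0.01. The median bounds of 1.67 and 2.51 (log2) became 0.66 and 1.19 without background correction and 0 and 0 on the deposited matrix, where most members sit at the floor. The median day 5 difference of 1.40 became 0.53 and 0. For the genotype test, calls over all tested probes are in brackets. The 11 genotype calls (582 of 13413) became 21 (800) without background correction and 28 (791) with an offset of 50. A trended and robust prior gave 30 (955). With no filter they became 1 (431 of 23978), and with 1 probe per gene 6 of 59 genes (475 of 9758). With no day term there were 0 (160), and on the deposited matrix 0 of 28 (418 of 12779). Without the macrophage group 3 of 55 were called, and leaving out 1 day each gave 0 to 47 (212 to 1253). With no filter more probes enter the adjustment, and for the others the cause was not tested. The 0 calls for the day 5 difference became 2 without background correction (25 over all tested probes) and 4 with an offset of 50 (55). The trended and robust prior gave 5 (153), also from a fit with 1 degree of freedom. The labels number no replicates; the genotypes were paired by day alone, through the day term. Detection on day 5 is set by each array's own negative controls, and dim members near 0.05 can fall on either side.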
